A study of Homo sapiens with 40 samples.

Results

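The folding of the genome was compared between A549 cells and A549 cells in which SETDB1 was disrupted. A549 is an established lung adenocarcinoma line, and every sample comes from it. Control cells (CT) carry no disruption of SETDB1, and the knockout (KO) was made by CRISPR/Cas9 with a guide delivered on a plasmid. Whether the KO is a single clone is not given in the sources used here. In situ Hi-C had 2 libraries per genotype, among 40 samples that also cover RNA-seq and ChIP-seq. The score of A and B compartments was deposited in 100 kb bins, and the 26503 bins with a value in all 4 replicate columns, of 30376 in the table, are described here. They are joined by a TAD list for each genotype (TAD, topologically associating domain), with 6118 TADs in control and 6283 in KO, on a 20 kb grid. All positions are on hg19. The depth of the Hi-C libraries is not given in the sources used here.

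Hi-C captures pairs of loci that lie close together in the nucleus. On the scale of megabases, chromatin sorts into an A compartment, which is rich in genes and active marks, and a B compartment, which is rich in silent chromatin and often lies at the nuclear lamina. TADs are shorter stretches whose loci contact each other more than loci beyond their edges, and many edges carry CTCF, a DNA-binding protein at which loop extrusion by cohesin stops. SETDB1 is a methyltransferase that places H3K9me3, a mark of silent chromatin found on transposable elements and on clusters of zinc finger genes. H3K27me3, the mark of Polycomb, is the other major silent mark, and H3K27ac and H3K4me3 mark active enhancers and promoters.

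The labels were checked first. SETDB1 was measured at 36.4 to 39.7 CPM (counts scaled to library size) in the 3 control RNA-seq libraries and at 21.0 to 23.7 CPM in the 3 KO libraries, with no overlap. The 5 epithelial markers KRT8, KRT18, KRT19, EPCAM and CDH1 lay between 3.76 and 6915 CPM in these 6 libraries. All 5 were higher in each KO library than in any control library. KRT8 was at 2055 to 2367 CPM in control and 6358 to 6915 CPM in KO, KRT19 at 66.8 to 77.8 and 397 to 439 CPM, and CDH1 at 26.1 to 27.3 and 51.4 to 54.4 CPM. Of 5 markers of other cells, COL1A1, a fibroblast collagen, reached 4.14 CPM, and PTPRC, CD3E, VWF and COL1A2 stayed under 1 CPM in every library; PECAM1 was not analysed here. The sign of the score was read from H3K27ac. A positive score is called A and a negative score B, and on all 23 chromosomes (1 to 22 and X), in all 4 replicates, H3K27ac peaks covered a larger share of A than of B bins, from 2.63 times on chromosome 19 to 88.2 times. Across bins the score correlated at 0.993 between control replicates and at 0.996 between KO replicates, and at 0.891 to 0.893 between genotypes. Bins of a chromosome share their contacts, so these are descriptions. Nothing says that the replicates came from separate cultures, so p-values measure the spread between these libraries, which may be technical. An exact two-sided permutation test of 2 against 2 libraries cannot go below p = 0.333. That is its value wherever the genotypes are said not to overlap in a Hi-C value and no other test is given. RNA values were not tested.

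To ask whether the compartments were more or less sharply separated in KO cells, the strength of the score was measured in each replicate. The separation was wider in KO, and the difference lay on the B side. The mean score of B bins was -0.582 and -0.572 in the control replicates and -0.656 and -0.652 in the KO replicates, and the genotypes did not overlap. The mean score of A bins was 0.639 and 0.645 in control and 0.642 and 0.638 in KO, and here the genotypes overlapped. Polarisation, the mean of A bins minus the mean of B bins, was 1.22 in each control replicate and 1.30 and 1.29 in the KO replicates, a difference of 0.075 between genotype means. The SD of the score over all bins was 0.697 ± 0.00057 in control and 0.737 ± 0.0030 in KO (SD, n = 2), a ratio of 1.06. A and B bins were set by sign in each replicate, so the means of A and B bins are not over the same bins in both genotypes. The scale of the score is not stated. The KO to control ratio of the means was 1.13 for B bins and 0.997 for A bins, and the part of column scaling in these values was not tested.

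**Figure D1:**
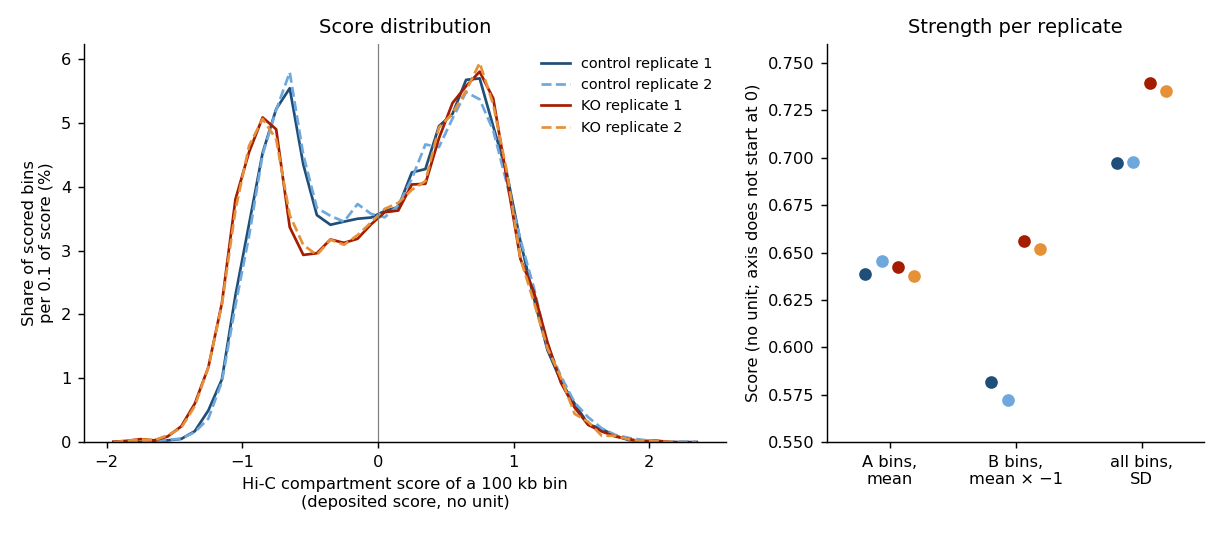
Left, share of the 26503 scored bins (percent, vertical axis) in each 0.1 step of the Hi-C score (horizontal axis, no unit), 1 line per replicate. Right, mean score of A bins, mean score of B bins times -1, and SD of the score over all bins (score, no unit), 1 point per replicate. The lines of the genotypes lie close together on the A side, and the B peak of both KO replicates lies further from 0, with B means of -0.656 and -0.652 against -0.582 and -0.572 in control.

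The tails gave the same picture. The 5th percentile of the score was -0.973 and -0.954 in control and -1.08 in each KO replicate, whereas the 95th percentile was 1.14 and 1.16 in control and 1.14 and 1.13 in KO. Strong B bins, those beyond 1 SD of their own column, made up 17.4% and 16.8% of bins in control and 20.9% in each KO replicate. Strong A bins made up 24.1% and 24.0% in control and 22.0% in each KO replicate. The SD was larger in KO, at a mean of 0.737 against 0.697 in control, so a bin had to lie further out to count there. The part of this limit in the shares of strong bins was not tested. The share of all bins that were A did not separate the genotypes, with 55.5% and 55.1% in control and 55.1% in each KO replicate. The mean score of all bins was 0.095 and 0.098 in control and 0.060 and 0.058 in KO.

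The lowest scores fell on different bins in the genotypes more than the highest scores did. The lowest 10% of bins of a control and of a KO replicate, 2651 bins each, shared 56.1% to 56.7% of their number over the 4 pairings, against 88.9% between control replicates and 90.3% between KO replicates. The highest 10% shared 76.5% to 77.1% between genotypes, against 85.3% and 87.9%. Bins were also ranked into 10 equal groups on control replicate 1, and KO was then set against control replicate 2, which the ranking did not use. In the lowest group KO was higher by 0.073 and 0.077 in its 2 replicates. In the fifth group, which straddles 0, the differences were -0.097 in each. In the highest group they were -0.063 and -0.072. Control replicate 1 minus control replicate 2 stayed between -0.021 and 0.0058 over the 10 groups. When bins were ranked on KO replicate 1 instead, KO replicate 2 minus the 2 control replicates was -0.268 and -0.280 in the lowest group, with scores of -1.11 in KO and -0.834 in control. The highest group of that ranking was 0.040 and 0.020 above the control replicates. Ranking on either genotype moves the extreme groups of the other towards 0 wherever the genotypes are imperfectly correlated, so the 2 rankings are given together. The lowest group differed by 0.075 under the control ranking and by -0.274 under the KO ranking.

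**Figure D2:**
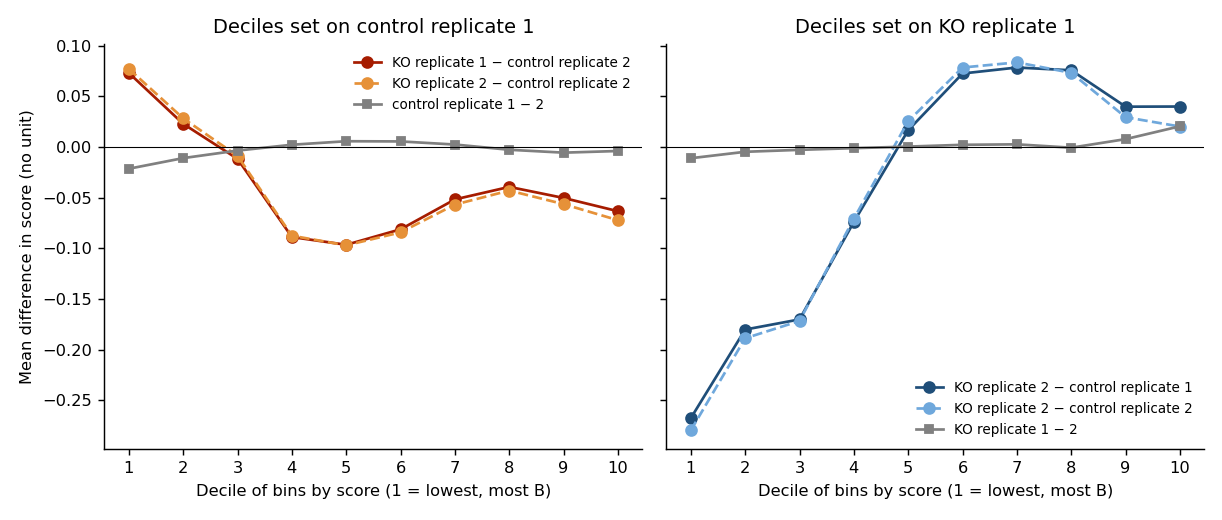
Mean difference in score (no unit, vertical axis) in each of 10 equal groups of bins ranked by score (1 is the lowest), ranked on control replicate 1 (left) and on KO replicate 1 (right). Coloured points are differences between a KO and a control replicate and grey squares those between replicates of 1 genotype. The lowest group lies at 0.073 and 0.077 on the left and near -0.27 on the right, while grey squares stay within 0.022 of 0.

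Bin by bin, limma found a changed score at a Benjamini-Hochberg adjusted p under 0.05 in 15584 of 26503 bins (58.8%), of which 5711 were higher (21.5% of bins tested) and 9873 lower (37.3%) in KO. With columns quantile normalised to 1 distribution the lean was smaller, with 6900 higher and 8399 lower, and the median difference was -0.0081 instead of -0.045. The median absolute difference was 0.152, against a median of 0.049 between control replicates and 0.041 between KO replicates. Large changes were more even, with 1488 bins that rose by more than 0.5 and 1591 that fell by more than 0.5. Bins that were B in all 4 replicates were the class with the most falls, 4929 of the 9873. Among these 10040 bins, 49.1% fell and 16.5% rose, and their mean went from -0.616 and -0.610 in control to -0.728 and -0.724 in KO. Among the 12833 bins that were A in all 4 replicates, 24.97% fell and 18.9% rose, and their mean was 0.703 and 0.707 in control and 0.693 and 0.687 in KO. Both classes leave out the bins that changed sign. Of the 1328 bins that went from B to A, 1308 were called higher. Of the 1318 bins that went from A to B, 1309 were called lower. The class rule thus takes rises out of the B class and falls out of the A class. Its part in these shares and means was not tested.

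Compartment domains, meaning runs of neighbouring bins of 1 sign, were about as many and as long on average in both genotypes, but the longest ones differed. There were 2287 and 2247 domains in control and 2277 and 2269 in KO. A domains averaged 1182 and 1192 kb in control and 1179 and 1182 kb in KO, and B domains 1132 and 1165 kb in control and 1146 and 1151 kb in KO. Each of these overlapped between genotypes. Domains of at least 5 Mb were fewer in KO. There were 53 such A domains in each control replicate and 47 in each KO replicate, and 30 and 31 such B domains in control against 24 and 25 in KO. The longest A domain nevertheless was 11.2 Mb in each control replicate and 18.4 Mb in each KO replicate, while the longest B domain was 9.2 Mb in control and 7.5 and 7.6 Mb in KO. A domains of at least 10000 kb held 1.49% and 2.19% of the A length in control and 3.03% in each KO replicate.

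The 18.4 Mb A domain of KO lay on chromosome 4 (85400001 to 103800000). Its mean score was 0.313 and 0.325 in control and 0.662 and 0.658 in KO, and 64.1% of its bins were A in both control replicates. The next longest A domain of KO spanned 15.1 Mb of chromosome 6 (131100001 to 146200000), where 88.1% of bins were A in both control replicates. An A domain of 10.7 Mb on chromosome 15 (62200001 to 72900000) had the same ends in all replicates, with scores of 0.457 and 0.464 in control and 0.506 and 0.499 in KO. The longest B domain of control spanned 9.2 Mb of chromosome 5 (22200001 to 31400000) and was much weaker in KO, with scores of -0.635 and -0.632 in control and -0.190 and -0.178 in KO. Of its bins, 73.9% were B in both KO replicates. The second, 9.1 Mb of chromosome 2 (75900001 to 85000000), went from -0.635 and -0.644 to -0.436 and -0.439. The third, 7.5 Mb of chromosome 16 (58800001 to 66300000), differed little, at -0.713 and -0.724 in control and -0.707 in each KO replicate. Of the longest A domains of control, 11.1 Mb of chromosome 1 (225600001 to 236700000) stayed A over 99.1% of its bins, and 9.9 Mb of chromosome 5 (52100001 to 62000000) stayed A over 77.8%. By contrast, the longest B domain of KO, 7.5 Mb of chromosome 21 (19600001 to 27100000), was already B in control over 98.7% of its bins, with scores of -0.962 and -0.948 in control and -1.08 and -1.07 in KO. H3K9me3 peaks covered 31.8% of that stretch in control and 95.1% in KO. The B domains next in length in KO, on chromosomes 14 (78300001 to 85600000) and 9 (6900001 to 14100000), had H3K9me3 over 24.3% and 26.99% in control and over 77.9% and 75.7% in KO. In the 3 longest B domains of control, H3K9me3 went from 38.03% to 50.9% on chromosome 5, from 52.2% to 57.3% on chromosome 2 and from 24.5% to 64.9% on chromosome 16, so coverage was also larger in KO where the score was weaker or differed little.

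Sign changes between genotypes were similar in number in both directions but differed in form. Bins that were A in both control replicates and B in both KO replicates numbered 1318, or 4.97% of all scored bins (95% Wilson interval 4.72% to 5.24%). Bins that went from B to A numbered 1328, or 5.01% (4.75% to 5.28%). These intervals, like the others given here, cover counting error only. A further 984 bins (3.71%) had no stable sign in a genotype. B to A bins crossed a wider distance, from -0.443 and -0.441 in control to 0.317 in each KO replicate. A to B bins started near 0, at 0.220 and 0.212, and reached -0.280 and -0.281.

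Bins that went from B to A lay in long blocks, and bins that went from A to B were scattered. The A to B bins fell into 681 runs of neighbouring bins, 60.4% of them of a single bin, and the longest run held 14 bins. The B to A bins fell into 367 runs, 45.0% of them of a single bin, and the longest held 42. Runs of at least 5 bins held 61.1% of B to A bins and 27.9% of A to B bins. Of runs of at least 10 bins, 31 were B to A and 8 were A to B. The 5 longest B to A runs were a stretch of 4.2 Mb on chromosome 13 (81100001 to 85300000), 2 on chromosome 4 (115300001 to 119200000 and 178500001 to 181500000), 1 on chromosome 3 (93900001 to 96700000) and 1 on chromosome 8 (114700001 to 117500000). On chromosome 13 the score went from -0.681 and -0.635 to 0.533 and 0.537. On chromosome 8 it went from -0.856 and -0.838 to 0.477 and 0.499, and the whole run of 28 bins lay in a single control TAD.

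The 5 longest A to B runs held 11 to 14 bins, and 3 of them lay on chromosome 2. These were at 133400001 to 134800000, 107100001 to 108400000 and 30900001 to 32000000, with KO minus control differences of -0.718, -0.654 and -0.622. A run on chromosome 1 (55800001 to 57200000) differed by -0.584. The run on chromosome 12 (115000001 to 116400000) fell furthest, from 0.204 and 0.212 in control to -0.988 and -1.01 in KO, and H3K9me3 peaks took up 18.0% of it in control cells and 86.7% in KO cells. H3K9me3 coverage was not higher in KO in every such run. It was 12.4% in control and 0.222% in KO on chromosome 1, and 20.5% and 2.93% at 30900001 to 32000000 of chromosome 2. In the other runs of chromosome 2 it was higher in KO. There it was 11.3% and 39.3% at 133400001 to 134800000, and 20.2% and 31.6% at 107100001 to 108400000.

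To ask how the compartments sat on the TADs, each pair of neighbouring bins was placed inside 1 TAD or across a TAD edge, using the TAD list of the same genotype. Sign changes lay at TAD edges more often in KO cells. Within TADs, 5.03% and 4.94% of pairs had unlike signs in control and 4.35% and 4.44% in KO. Across edges, the shares were 12.5% and 11.9% in control and 14.2% and 13.7% in KO. Neither measure overlapped between genotypes. Unlike signs were thus 2.48 and 2.42 times as frequent across as inside in control, and 3.26 and 3.09 times in KO. The number of sign changes overlapped between genotypes, with 1769 and 1729 in control and 1759 and 1751 in KO. Of these, 38.8% and 38.1% lay across a TAD edge in control and 45.7% and 44.4% in KO, whereas edges separated 21.2% of all pairs in control and 21.8% in KO. With the control list used for all replicates, the difference in that share was 4.74 percentage points instead of 6.59.

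Scored on the list of their own genotype, the TADs of KO cells were also more uniform inside. Of TADs with at least 2 scored bins, 14.1% and 14.0% held bins of both signs in control, and 12.0% and 12.1% in KO. The part of the variance of the score that lay inside TADs was 5.19% and 4.90% in control and 4.19% and 4.15% in KO. The mean step of the score between neighbours was 0.124 and 0.119 inside TADs in control and 0.119 and 0.118 in KO, and across edges it was 0.218 and 0.214 in control and 0.229 and 0.225 in KO. The TAD lists have no replicates, so only the score varies between replicates in these values. The KO list held more and shorter B TADs, 1802 with a mean of 665 kb against 1563 with a mean of 765 kb. The part of TAD length in these values was not tested. With the control list used for all replicates, the difference in unlike pairs inside TADs was -0.416 percentage points instead of -0.590.

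**Figure D3:**
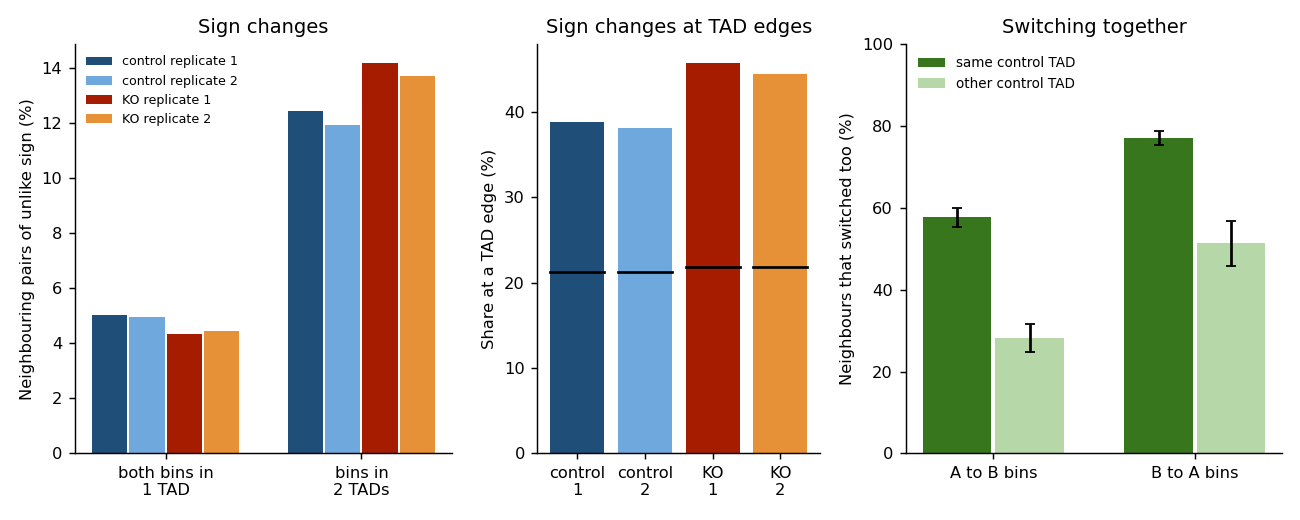
Left, percent of neighbouring 100 kb pairs of unlike sign, for pairs in 1 TAD and pairs in 2 TADs, 1 bar per replicate. Middle, percent of sign changes that lie across a TAD edge in each replicate, with a black line at the share of all pairs that do (21.2% control, 21.8% KO). Right, percent of the neighbours of a switching bin that switched in the same direction, in the same or another control TAD, with 95% Wilson intervals. KO bars are lower within TADs and higher across them, and neighbours switched together most often inside TADs.

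Switching between genotypes followed TADs as well. The neighbour of a bin that went from A to B had made the same change in 57.7% of cases (55.4% to 59.9%) inside a control TAD and in 28.1% (24.8% to 31.7%) across an edge, at the same distance of 1 bin. For bins that went from B to A the shares were 77.0% (75.2% to 78.7%) and 51.3% (45.8% to 56.8%). Many neighbours across an edge had the other sign in control and could not make the same change. Among neighbours that began with the same sign and had a stable sign in each genotype, the shares were 80.7% inside and 41.9% across for A to B, and 91.6% and 74.8% for B to A. Neighbouring bins share contacts, so these intervals are too narrow for a comparison between regions.

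Few TADs switched as a whole. Of 5151 control TADs with at least 2 scored bins, 4194 held no switching bin, 84 went wholly from A to B, 58 wholly from B to A, 806 switched in part in 1 direction and 9 held both directions. The order of the directions depended on the list: of the TADs of the KO list, 88 went wholly from A to B and 103 wholly from B to A. Wholly switching TADs held 25.4% of the switching bins in these TADs. Those that went from B to A were larger, with a median of 450 kb and up to 24 bins, against 300 kb and up to 14 bins for A to B. Over the whole control list, TADs in B were also longer than TADs in A, with medians of 500 kb and 280 kb.

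The mean score per control TAD was tested in the same way as bins. Of 5151 TADs, 3567 (69.2%) passed an adjusted p under 0.05 in limma, 1247 higher (24.2%) and 2320 lower (45.0%) in KO. A rise of more than 0.5 was found in 153 TADs and a fall of more than 0.5 in 272. Of the 153 rises, 29 lay on chromosome 4 and 12 on chromosome 19, which hold 324 and 100 of the TADs tested. Of the 272 falls, 51 lay on these 2 chromosomes together.

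The TADs with the largest rises went from strong B to A. The largest was a TAD of 8 scored bins on chromosome 8 (46900001 to 47860000), from -1.34 and -1.30 in control to 0.483 and 0.509 in KO (difference 1.81, SE 0.025, limma adjusted p 7.7e-07). H3K9me3 covered 78.0% of its bins in control and 4.62% in KO, and H3K27me3 1.17% and 23.5%. A pair of chromosome 19 TADs followed. The one from 52760001 to 54280000 went from -1.20 and -1.25 to 0.246 and 0.240, while H3K9me3 coverage went from 95.01% to 6.07% and H3K27ac from 1.06% to 10.2%. The one from 36680001 to 38380000 went from -1.23 and -1.36 to 0.132 and 0.136, with H3K9me3 at 91.4% and 0.976% and H3K4me3 at 5.63% and 12.5%. H3K9me3 coverage was not lower in KO in all of these TADs. The X chromosome TAD from 115000001 to 117120000 rose from -0.821 in each control replicate to 0.544 and 0.560, with H3K9me3 coverage of 4.64% in control cells, 16.0% in KO cells, and H3K27me3 of 0.336% and 34.6%. The TAD around the chromosome 8 run (114460001 to 117480000) rose from -0.867 and -0.855 to 0.446 and 0.469 over 3.02 Mb, with H3K9me3 at 20.7% and 2.62%.

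The TADs with the largest falls were shorter, at 300 to 1100 kb. On chromosome 5 (174340001 to 174920000) the mean score fell from 0.940 and 1.03 to -0.532 and -0.553 (difference -1.53, SE 0.034, limma adjusted p 1.1e-06), where H3K27ac coverage was 3.31% in control and 0.248% in KO, H3K9me3 24.2% and 41.9%, and H3K27me3 14.3% and 19.9%. On chromosome 12 (115080001 to 116180000) it fell from 0.224 and 0.225 to -1.04 and -1.06, where H3K9me3 took up 17.6% of the length in control cells and 91.9% in KO cells, and H3K27me3 17.8% and 0.924%. On chromosome 15 (31800001 to 32440000) a TAD that was already B fell from -0.318 and -0.312 to -1.58 in each KO replicate, with H3K9me3 at 25.9% and 62.1% and H3K27me3 at 51.7% and 23.4%. Falls of 1.12 on chromosome 3 (38700001 to 39080000) and 1.10 on chromosome 7 (106120001 to 106420000) completed the set, and coverage by H3K27me3 was 75.5% in control and 29.0% in KO in the former. In the chromosome 7 TAD, H3K9me3 was 13.7% and 16.3% and H3K27me3 24.9% and 17.3%.

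TAD positions were largely shared, and edges found only in KO were most frequent where the score went from B to A. A control TAD counted as kept when a KO TAD had both edges within 20 kb, which held for 87.1% of control TADs, for 90.7% (89.8% to 91.5%) of TADs in A and for 77.2% (75.1% to 79.2%) of TADs in B. B TADs were longer than A TADs in both lists, with medians of 500 kb and 280 kb in control. The KO list held more and shorter B TADs, 1802 with a mean of 665 kb against 1563 with a mean of 765 kb, while A TADs numbered 4385 and 4463 with means of 331 and 326 kb. TADs of at least 1 Mb numbered 452 in control and 413 in KO.

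Control TADs in which a bin went from B to A were kept in 68.8% of cases (63.7% to 73.4%), and 17.9% were subdivided, meaning that both edges stayed and KO had further edges between them. Of control TADs whose bins were A throughout, 91.9% (91.0% to 92.7%) were kept and 1.27% subdivided. Of those whose bins were B throughout, 78.8% (76.1% to 81.4%) were kept and 4.28% subdivided. These classes differ in length, with medians of 580, 260 and 500 kb, and the part of length in the shares was not tested. Edges in B to A bins numbered 191 in control and 236 in KO, or 1.44 and 1.78 per Mb. Of the KO edges there, 28.8% (23.4% to 34.9%) had no control edge within 20 kb, against 4.15% (3.60% to 4.78%) of KO edges in kept A bins, 12.8% (11.2% to 14.6%) in kept B bins and 6.90% (4.87% to 9.67%) in A to B bins. Of the control edges, those without a KO edge were 9.42% (6.04% to 14.4%) in B to A bins and 8.91% (7.52% to 10.5%) in kept B bins, with overlapping intervals.

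The chromosomes did not move alike, and chromosomes 4 and 19 stood apart. Their scores correlated at 0.704 between genotype means on each, against a median of 0.927 and a highest value of 0.974 (chromosome 17) over all 23, while replicates of a genotype correlated at 0.979 to 0.998 on every chromosome. On chromosome 4, 15.4% of bins went from B to A, and on chromosome 19 13.2% did, followed by 9.23% on chromosome 13 and 8.03% on chromosome 12. Chromosomes 4 and 19 together held 25.4% of all B to A bins and 11.8% of all A to B bins. Without them, 4.09% of bins went from B to A and 4.79% from A to B, and the mean of A bins no longer overlapped between genotypes, at 0.636 and 0.643 in control and 0.648 and 0.644 in KO.

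The share of A bins changed on 14 of 23 chromosomes (60.9%) in limma at an adjusted p under 0.05, higher in KO on 5 (21.7%) and lower on 9 (39.1%). On chromosome 19 the share was 60.8% and 58.7% in control and 70.3% in each KO replicate, a rise of 10.5 percentage points (SE 0.486, limma adjusted p 2.29e-24). On chromosome 4 it was 53.2% in each control replicate and 60.7% and 61.1% in KO, a rise of 7.69 points. Rises on chromosomes 12, 13 and X were 3.50, 2.84 and 1.80 points. The largest falls were -4.13 points on chromosome 14, -4.03 on chromosome 11, -3.17 on chromosome 2, -3.09 on chromosome 5 and -2.28 on chromosome 15. The fit found no difference in replicate spread between chromosomes and used a single spread for all 23, and the chromosomes come from the same 4 libraries, so the size of these p-values rests on that spread. With either KO replicate left out in turn, 6 chromosomes passed, 2 higher and 4 lower, and the named chromosomes that then missed the threshold were 12, 13, X and 15. The balance also depended on weakly scored bins. Without bins under the 10th percentile of absolute score, which lie near 0, 12 chromosomes were higher and 8 lower, the falls were -1.81 points on chromosome 14, -1.05 on 11, -1.36 on 2, -1.32 on 5 and -0.420 on 15, and the rises on 13 and X were 5.78 and 3.48 points.

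The median RNA level also shifted on some of these chromosomes. The median log2 ratio of KO to control was -0.48 over 900 genes of chromosome 2, 0.40 over 738 genes of chromosome 12 and 0.33 over 1002 genes of chromosome 19, against 0.043 over all 13598 genes. On chromosome 4 it was 0.052 over 500 genes, and on chromosome 14 0.041 over 459. The part of these shifts in the scores was not tested.

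**Figure D4:**
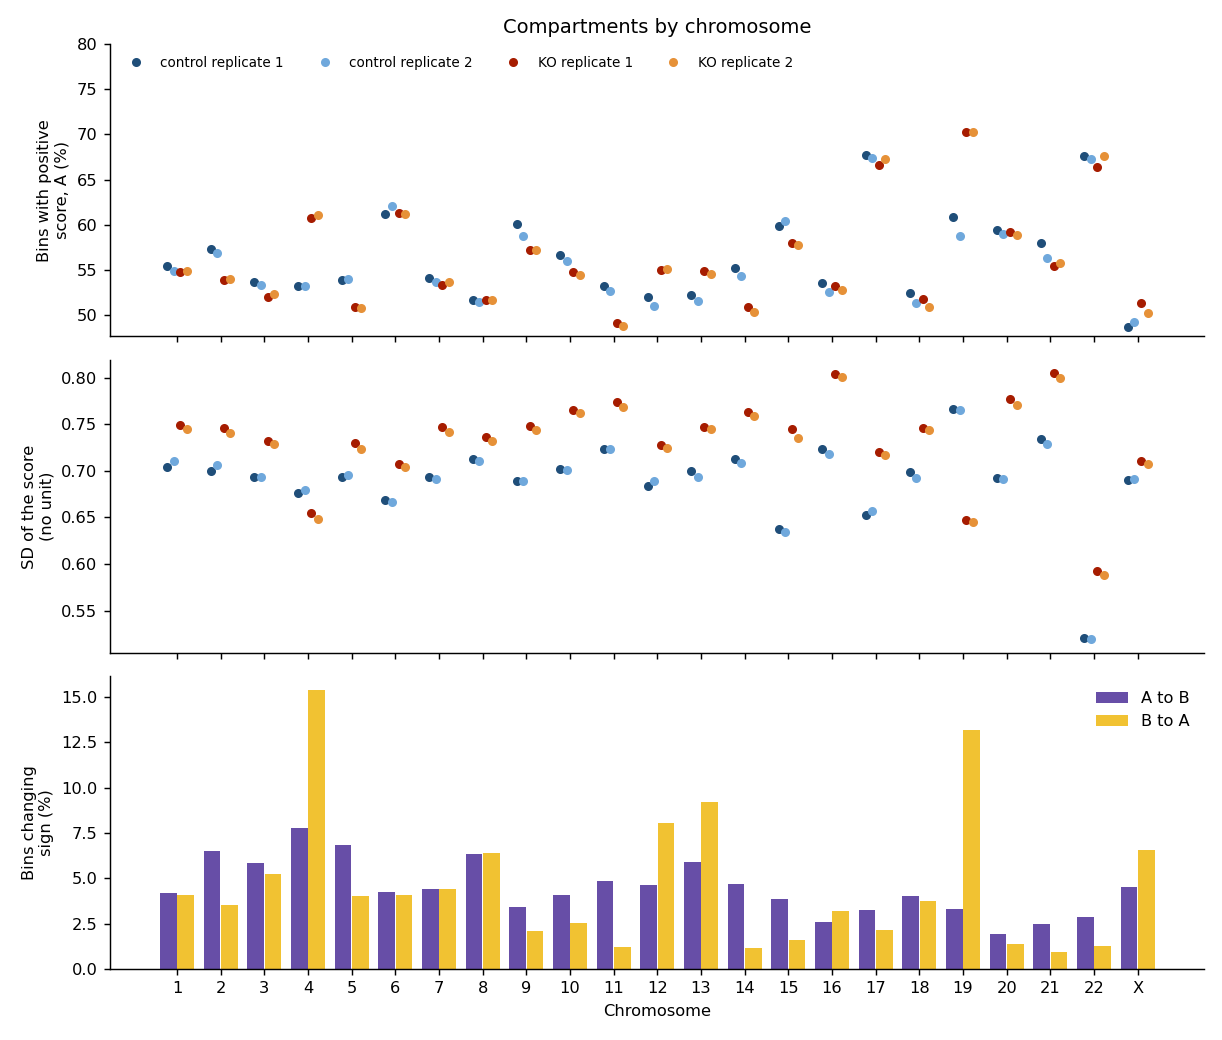
Percent of scored bins that are A (top), SD of the score (middle, no unit) and percent of bins that changed sign in each direction (bottom) for chromosomes 1 to 22 and X; points are replicates. The top axis starts above 0 and so does the middle axis. KO points lie below control in SD on chromosomes 4 and 19 and above on the other 21, and B to A bars are highest on 4 (15.4%) and 19 (13.2%).

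The SD of the score within a chromosome, the measure of strength, passed the same test on all 23 chromosomes (100%), higher in KO on 21 (91.3%) and lower on 2 (8.70%). The largest ratios of KO to control were 1.16 on chromosome 15, 1.14 on 22, 1.12 on 20, 1.11 on 16 and 1.10 on 17. Chromosome 15 had an SD of 0.638 and 0.635 in control and 0.745 and 0.735 in KO. The 2 lower chromosomes were 19, at 0.766 and 0.765 in control and 0.647 and 0.645 in KO, and 4, at 0.676 and 0.679 against 0.655 and 0.649. When all columns were first scaled to the same SD, 12 chromosomes were called higher and 5 lower. The 7 chromosomes named here kept their direction and their call under that scaling, so they differed from the other chromosomes as well as between genotypes.

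The means of A and B bins differed in other ways on chromosome 19 than on chromosome 4. On chromosome 19 the mean of B bins was -0.832 and -0.824 in control and less negative in KO, at -0.608 and -0.607. Its mean of A bins was 0.587 and 0.577 in control and 0.575 and 0.576 in KO. Chromosome 19 was the only chromosome of 23 whose mean score was higher in KO. On chromosome 4 the mean of A bins was 0.688 and 0.696 in control and lower in KO, at 0.587 and 0.580. Its B bins averaged -0.477 and -0.470 in control and -0.546 and -0.548 in KO. A and B bins were set by sign in each replicate, so these means are not over the same bins. On chromosome 4, 281 bins went from B to A, and on chromosome 19, 56 did. The part of this change of membership in the means was not tested.

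Chromatin marks differed between the classes of bins. The classes were set by the sign of the score alone, and H3K27ac served only to say which sign is called A. The peak lists come 1 per mark and genotype, so these shares of length have no replicate error. In bins that stayed A, 9.53% of the sequence lay under H3K9me3 peaks in control cells and 0.939% in KO cells. In bins that stayed B, H3K9me3 covered 15.3% in control and 57.4% in KO, and H3K27me3 20.7% and 10.6%. In bins that went from B to A, H3K9me3 went from 18.1% to 2.41%, H3K27ac from 0.760% to 2.52% and H3K4me3 from 1.33% to 3.92%. In bins that went from A to B, H3K9me3 was 12.6% in control and 11.9% in KO, and H3K27me3, at 24.1% and 21.3%, was the more extensive silent mark in both. Counting bins with at least 1 H3K9me3 peak gave another picture, since the share of such bins in KO minus control was -36.6 percentage points for A to B bins and 1.31 points for kept B bins, against -0.733 and 42.1 points by length.

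Among bins that stayed B, the silent marks differed with the direction of the score. The 4929 bins whose score fell further were rich in H3K27me3 in control, at 30.8%, and had 10.4% in KO, while H3K9me3 covered 12.0% in control and 60.9% in KO. The 1655 bins whose score rose had 10.2% H3K27me3 in control and 14.4% in KO, and H3K9me3 of 20.2% and 32.8%. The 3456 bins without a call had 11.4% and 8.88% H3K27me3, and H3K9me3 of 17.8% and 64.3%. H3K9me3 coverage was therefore larger in KO in all 3 groups, and the H3K27me3 difference was widest where the score fell.

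**Figure D5:**
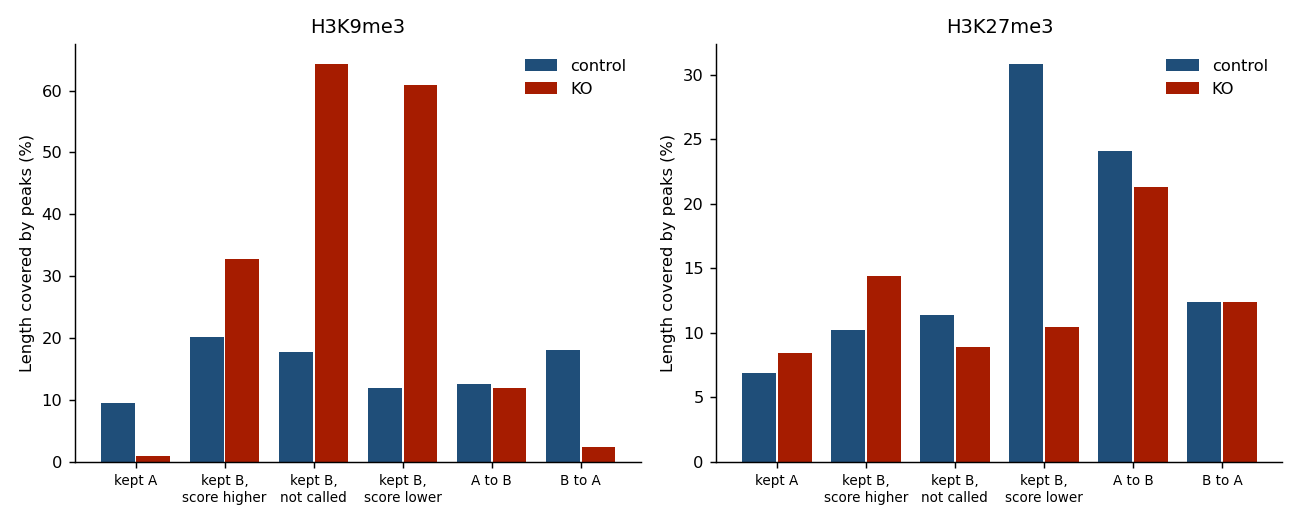
Percent of length covered by H3K9me3 (left) and H3K27me3 peaks (right) in bins that stayed A, in bins that stayed B by the call of their score, and in bins that went from A to B or from B to A, in control and KO; 1 peak list per genotype, without error bars. H3K27me3 in B bins whose score fell goes from 30.8% to 10.4%, and H3K9me3 there from 12.0% to 60.9%.

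The B to A bins of different chromosomes carried different marks in control. The 56 on chromosome 19, a chromosome known for its clusters of zinc finger genes, had H3K9me3 over 91.5% of their length in control and 3.80% in KO, and H3K27ac over 2.42% and 11.6%. The 281 on chromosome 4 had H3K9me3 over 4.88% in control and 0.568% in KO, H3K27me3 over 6.43% and 6.33%, and H3K27ac over 0.152% and 0.943%. The 86 on chromosome 13 had H3K9me3 over 4.55% and 0.456% and H3K27me3 over 4.24% and 6.19%. B to A bins of chromosomes 4 and 13 thus had little of either silent mark in control, and those of chromosome 19 were almost covered by H3K9me3. The contrast in H3K9me3 was not particular to switching bins. In bins that stayed B, control H3K9me3 covered 3.53% on chromosome 4, 5.24% on chromosome 13 and 67.5% on chromosome 19. Control H3K27me3 covered 9.88%, 13.1% and 22.8% of those bins. On chromosome 19 the bins that stayed B also had less H3K9me3 in KO, 39.6% against 67.5%, whereas those of chromosome 4 had more, 41.8% against 3.53%.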

How the data were processed

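Hi-C used DpnII digestion and ligation in situ, per the labels' protocols. The authors deposited a signed compartment score per 100 kb bin, replicate and genotype, whose method and scale are not given in the sources used here, nor are the TAD caller, any pooling behind the TAD lists, and Hi-C depth. TAD and peak lists held positions only. Deposited gene counts were used only for CPM (libraries of 18065062 to 48364919 counts); chromosome medians used a mean of at least 1 CPM, a pseudocount of 0.5 CPM and a RefSeq table on GRCh38.p14 for chromosome names. The submitters' processing notes name hg19, STAR 2.6.1c, Bowtie2 2.2.3, SAMtools 1.5, edgeR 3.30.0, Picard and MACS2 without saying for which data.

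Here, limma 3.58.1 in R 4.3.3 (genotype as the only term, 2 residual degrees of freedom, prior degrees of freedom 7.97 for bins and 3.99 for TADs) tested scores, TAD means, A shares and log2 SD; adjustment was by Benjamini-Hochberg at 0.05. The fits were tested on simulated scores. Other values came from Python 3.11.15 with numpy 2.4.6, pandas 2.3.3 and scipy 1.17.1. A bin belongs to the TAD that holds its midpoint. Runs were broken at unscored bins. Named were the 5 longest switching runs each way, the 5 TADs with the largest called rise and fall among those with at least 3 bins and no overlap, up to 5 chromosomes each way per fit, and the 3 longest domains per compartment and genotype. Members and lists were chosen with earlier results of these data known. The rankings of bins, the marks on chromosomes 4, 13 and 19, TAD fate by class and RNA medians were added after seeing the data. The replicate number does not pair the libraries by label, and replicate differences of the genotypes correlated at -0.0026 across bins. No per-sample column went unmapped (0 columns).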

Additional observations from a re-analysis of the deposited data

How the results depend on the processing

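Of 541 values of 82 results under alternatives, 462 kept their direction and their side of the threshold or stayed within their limits, 66 moved, 11 missed the threshold and 2 reversed. Reversal was not counted for domain numbers and lengths, or for strength values that overlapped between genotypes. Their changes of sign are among the 66 or the 462. The causes were not tested. Results without chromosomes 4 and 19, and those over neighbours with the same control sign, were chosen after seeing the data. With the replicate block, 15976 bins, 3519 TADs, 10 chromosomes in A share and 23 in SD were called, and of the named results only the rise in A share of chromosome X lost its call. Without chromosomes 4 and 19 the difference in SD was 0.047 instead of 0.040 and that in polarisation 0.087 instead of 0.075; 4.09% of bins went from B to A, and 73.7% of their neighbours inside TADs switched too. The H3K9me3 difference in A to B bins reversed there to 0.078 percentage points, and the H3K27me3 difference in B to A bins reversed to 6.70 points when bins with at least 1 peak were counted. Leaving out bins under the 10th percentile of absolute score, which removes switching bins in part by construction, gave 2.19% A to B, 3.53% B to A and 12 chromosomes higher and 8 lower in A share. Scaled columns gave 12 chromosomes higher and 5 lower in SD. The sign of the genotype mean gave 5.95% A to B, 5.87% B to A and 31.8% of A to B neighbours across edges; the deposited pooled columns gave 5.94% and 5.85%. Mean domain length differed by -3.17 kb, by 30.1 kb (and -40 domains) with runs of 1 bin absorbed, and by -17.4 kb with unscored bins skipped. With the control TAD list, unlike pairs inside TADs differed by -0.416 points and sign changes at edges by 4.74. Bins wholly inside a TAD gave 62.9% and 79.8% of neighbours switching together (A to B and B to A); neighbours with the same control sign gave 80.7% inside and 41.9% across for A to B, and 91.6% and 74.8% for B to A. With the KO list, 88 TADs went wholly from A to B and 103 wholly from B to A, and 59.9% of B to A neighbours across edges switched together. Edges matched in 78.0% of control and 75.9% of KO cases on the same grid position, and in 97.1% and 94.9% within 2 steps. Leaving out 1 replicate gave 6 to 12 chromosomes changed in A share (2 to 4 higher, 4 to 8 lower), 5.36% to 5.68% A to B and 5.36% to 5.47% B to A; fewer replicates must then share a sign. The lone replicate is then assumed to vary like the other genotype.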

Other observations

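Scores were absent from bins unevenly between genotypes. Of the 30376 bins, 3456 had no score in any replicate, 201 had a score in both KO replicates and in no control replicate, and 13 had the reverse. Of the 201, 63 lay on chromosome 15, and 8 of the 13 lay on chromosome X. Of the 201 bins, 56.2% had a positive KO score.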
